A study of Homo sapiens with 4 samples.

Results

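Sites that carried an androgen response element (ARE) were examined among the TRIM24 and TRIM28 binding sites of LNCaP cells, a prostate cancer cell line that responds to androgen. The ChIP-seq sites of 4 lists on chromosomes 1 to 22 and X were merged where they overlapped by at least 1 bp, and a merged site was kept if the 200 bp of hg19 around its centre held the ARE consensus named in the motif results of the study, on either strand, with at most 1 mismatch at its fixed bases. This selected 234 of 74101 merged sites, or 0.316% (Wilson 95% interval 0.278 to 0.359). Among the merged sites, the motif chose the members and confined each element to those 200 bp. Which lists held a site, its tags and the nearby genes were not used beyond the call in at least 1 list. The lists that called a site also set its merged centre, and the consensus came from the study's motif results for these same ChIP-seq data.

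The ARE is a DNA element found near genes that respond to androgen. It is an inverted repeat of 2 arms of 6 bases around a spacer of 3 bases, and the glucocorticoid receptor recognizes a very similar sequence. R1881 (methyltrienolone) is a synthetic androgen. TRIM24 and TRIM28 are tripartite motif proteins that bind chromatin through other proteins and histone marks; TRIM24 is known as a nuclear receptor co-regulator, and TRIM28 (KAP1) as a co-repressor recruited by KRAB zinc finger proteins.

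Each of the 4 conditions had 1 sample. HA-TRIM24 was immunoprecipitated with an HA antibody from LNCaP cells that stably express HA-TRIM24, so its lists describe a tagged protein expressed from a construct. TRIM28 was immunoprecipitated with an antibody to TRIM28 from LNCaP cells, and the labels and the description of the study differ on whether those cells also carried HA-TRIM24. All cells were kept in charcoal-stripped serum for 3 days and then given ethanol, the vehicle, or 10 nM R1881, which was left on for 16 h. With no replicate cultures, no difference between conditions could be tested, and the intervals below cover only the sampling of sites or the counting of tags.

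The lists differed in depth. The 4 libraries held 11606880 to 25145171 tags, the largest being TRIM28 with ethanol, and the file headers give a threshold of 9 tags, or 12 in that library, although the deposited tags of some ARE sites came to less, as at AFF3 with 11 in that library. The lists held 4953 (TRIM24, ethanol), 9003 (TRIM24, R1881), 57685 (TRIM28, ethanol) and 34145 (TRIM28, R1881) merged sites. Tags are given as the deposited normalized tags, scaled to 10000000 per library, so that 1 tag was worth 0.86, 0.78, 0.40 and 0.70 normalized tags in that order. A site that is missing from a list was not called there, and its level in that library is not known.

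The elements at the sites that the results turn on are shown here, read along the orientation in which they fit the consensus, with the 2 arms in capitals and 10 or 11 bases of hg19 on either side. The first 2 belong to the ARE sites with the most TRIM24 tags, the next 3 to sites of both factors with R1881, then come the ARE site with the most TRIM28 tags and 2 sites in genes known to be regulated by androgen.
RAB3B: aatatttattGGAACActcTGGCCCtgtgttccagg
SMIM41: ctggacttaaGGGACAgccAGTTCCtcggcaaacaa
STK39: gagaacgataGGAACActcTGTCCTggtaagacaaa
LDLRAD3: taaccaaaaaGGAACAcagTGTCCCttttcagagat
GAS7: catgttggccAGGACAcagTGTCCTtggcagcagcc
SLC41A3: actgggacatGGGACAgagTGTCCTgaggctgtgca
FKBP5: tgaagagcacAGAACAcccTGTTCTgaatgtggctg
STEAP4: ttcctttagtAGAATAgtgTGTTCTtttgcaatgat
They lie at chr1:52414567-52414602 (minus strand), chr12:52520406-52520441 (plus), chr2:168943566-168943601 (plus), chr11:35929740-35929775 (plus), chr17:9840636-9840671 (plus), chr3:125747141-125747176 (minus), chr6:35569849-35569884 (plus) and chr7:87932983-87933018 (plus) of hg19. Counted from 1 at the first capital, the RAB3B element carries T12G, the SMIM41 element T10A and the STEAP4 element C5T, where the first letter is the consensus. The other 5 have no mismatch.

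Over all 234 sites, 31 elements (13.2%, 9.49 to 18.2) had no mismatch and 203 had 1. The left arm was most often GGAACA (46 sites), AGAACA (29) or GGGACA (27), and the right arm TGTCCT (40), TGTTCC (37) or TGTTCT (31). The motif is nearly palindromic, and 162 of the 234 elements fitted it in both orientations, so the strand given for an element, and which arm is called left, carry little information.

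To see how often the motif occurs by position alone, windows of the same 200 bp were placed 5 kb to either side of every site, leaving out those that touched a site. An ARE was present in 218 of 146083 such windows (0.149%, 0.131 to 0.170). Of the elements there, 14 of 218 (6.42%, 3.86 to 10.5) had no mismatch, beside 31 of 234 (13.2%, 9.49 to 18.2) at the sites. These intervals just overlapped, and the difference was not tested. As a share of all windows, those with an element without mismatch made up 0.00958% (0.00571 to 0.0161). Among all merged sites the share was 0.0418% (0.0295 to 0.0594), an interval that lay above that of the windows.

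With R1881, TRIM24 sites held an ARE 6.5 times as often as with ethanol, a ratio that rests on 6 ethanol sites and varied with the search. The share was 0.789% (0.626 to 0.993), or 71 of 9003 sites, with R1881 and 0.121% (0.0555 to 0.264), or 6 of 4953, with ethanol. The windows beside the same lists held an ARE at 0.136% (0.0914 to 0.202) and 0.154% (0.0935 to 0.254), so the ethanol list lay at the level of its surroundings and the R1881 list above it. Sought around the centre of each list's own site, an ARE was present at 0.911% with R1881 and 0.222% (0.124 to 0.397) with ethanol. With sites merged at 50% overlap the shares were 0.777% and 0.161%, and without mismatch 0.178% and 0.0202%. The study had reported the ARE among the most enriched motifs of TRIM24 sites in cells given androgen. The motif was thus known to be frequent in that list, and its excess there is no independent result. For TRIM28 the share was 0.431% (0.366 to 0.506), or 147 of 34145 sites, with R1881 and 0.231% (0.195 to 0.273), or 133 of 57685, with ethanol, beside 0.155% (0.128 to 0.187) and 0.146% (0.125 to 0.170) in the windows. Elements without mismatch were found at 16 TRIM24 sites with R1881 and 1 with ethanol, and at 25 TRIM28 sites with R1881 and 14 with ethanol.

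**Figure D1:**
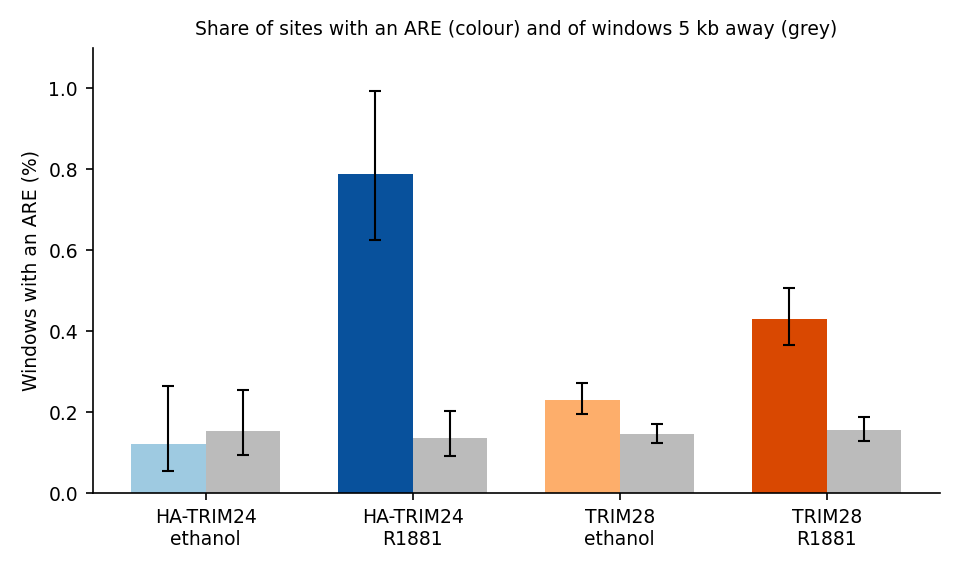
Percent of the merged sites of each list with an ARE in 200 bp (coloured bars) and percent of windows 5 kb away from the same sites (grey bars). Error bars are Wilson 95% intervals over sites. The TRIM24 list with R1881 stands highest at 0.789%, and the TRIM24 list with ethanol, at 0.121%, overlaps its grey bar.

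TRIM24 was called at 70 of the 234 ARE sites with R1881 and not with ethanol (29.9%), where 8.97% of all merged sites were called that way. It was called at 5 with ethanol only (2.14%), where the figure for all merged sites was 3.50%, and at 1 with both, the promoter of PHAX, an adaptor for the export of small nuclear RNAs. Read the other way, an ARE was present at 1.05% (0.835 to 1.33) of the TRIM24 sites that were called with R1881 only, at 0.193% (0.0823 to 0.450) of those called with ethanol only and at 0.0424% (0.00749 to 0.240) of those called with both. Thus 1.41% of the TRIM24 ARE sites with R1881 were also called with ethanol, against 26.2% of all TRIM24 sites with R1881.

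TRIM28 was called at 75 ARE sites with R1881 only (32.1%, where 17.1% of all merged sites were called that way), at 61 with ethanol only (26.1%, where 48.8% of all were) and at 72 with both (30.8%, where 29.0% of all were). An ARE was present at 0.593% (0.474 to 0.743) of the TRIM28 sites of R1881 only, at 0.335% (0.266 to 0.421) of those called with both and at 0.169% (0.131 to 0.216) of those of ethanol only, whose interval reaches over the 0.149% of the windows. Elements without mismatch numbered 14, 11 and 3 in these classes. The ethanol library of TRIM28 was the deepest and its weakest sites had 4.0 normalized tags, against 5.6 with R1881, so part of the sites of ethanol only lie below what the R1881 library could call. Where a site had to reach 8 normalized tags, the shares with an ARE were 0.653% (0.492 to 0.868) for R1881 only, 0.261% (0.167 to 0.407) for both and 0.205% (0.130 to 0.325) for ethanol only.

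**Figure D2:**
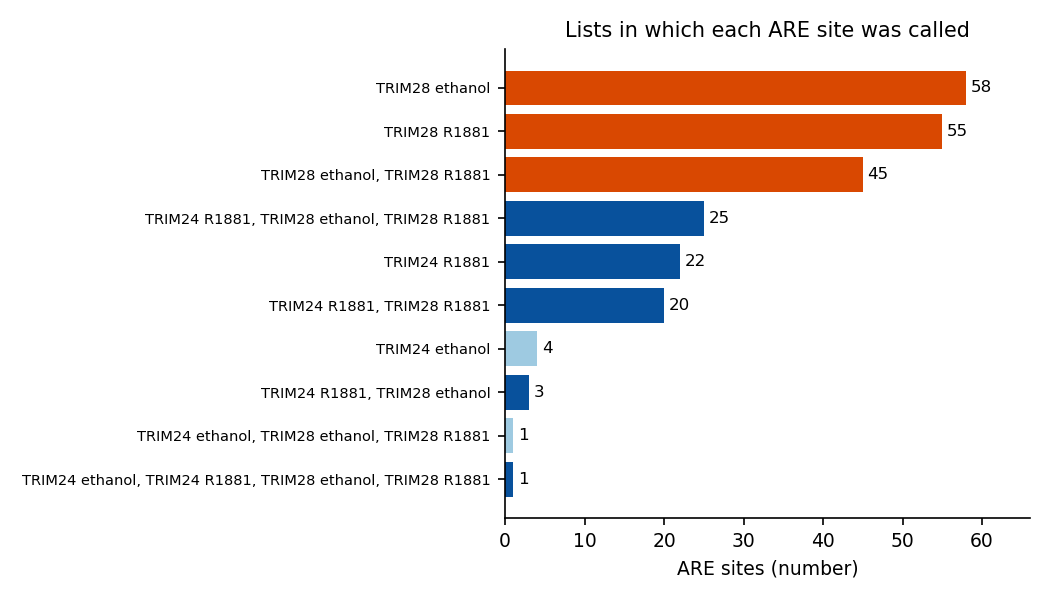
Number of ARE sites by the set of lists in which each was called. Dark blue bars include TRIM24 with R1881, light blue bars include TRIM24 with ethanol but not R1881, and orange bars are TRIM28 alone. TRIM28 alone accounts for 58, 55 and 45 sites, and the 4 sites of TRIM24 with ethanol alone are few beside the 22 of TRIM24 with R1881 alone.

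The share was highest at co-occupied sites, though its interval overlapped that of TRIM24 alone. With R1881, an ARE was present at 46 of 4690 sites called for both factors (0.981%, 0.736 to 1.31), at 25 of 4313 called for TRIM24 and not TRIM28 (0.580%, 0.393 to 0.854) and at 101 of 29455 called for TRIM28 and not TRIM24 (0.343%, 0.282 to 0.416). Among sites called for both factors with R1881 and for neither with ethanol, it was present at 20 of 953 (2.10%, 1.36 to 3.22). Of the TRIM24 ARE sites with R1881, 64.8% (53.2 to 74.9) were also TRIM28 sites with R1881, against 52.1% of all TRIM24 sites. Of the TRIM28 ARE sites with R1881, 31.3% (24.4 to 39.2) were also TRIM24 sites, against 13.7% of all TRIM28 sites. The element had no mismatch at 13 of the 46 co-occupied sites (28.3%, 17.3 to 42.5) and at 12 of the 101 of TRIM28 without TRIM24 (11.9%, 6.93 to 19.6).

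By their medians, the ARE sites were not stronger than all sites of their lists. The median was 9.3 normalized tags for TRIM24 with R1881 and 7.7 for TRIM28 with R1881, the same as over all sites of those lists. The TRIM28 medians with ethanol were also equal, at 6.4, and the 6 TRIM24 ARE sites with ethanol had a median of 9.5 beside 10.3 for all. Most members lay close to the calling limit, between 6.2 and 44.2 normalized tags for TRIM24 with R1881 with an upper quartile of 10.9. Among the 2251 strongest sites of the TRIM24 R1881 list, an ARE was present at 11 (0.489%, 0.273 to 0.873), and among the next 2251 at 24 (1.07%, 0.718 to 1.58). Elements without mismatch in the TRIM28 R1881 list were placed otherwise, with 13 of 25 among its 8537 strongest sites.

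**Figure D3:**
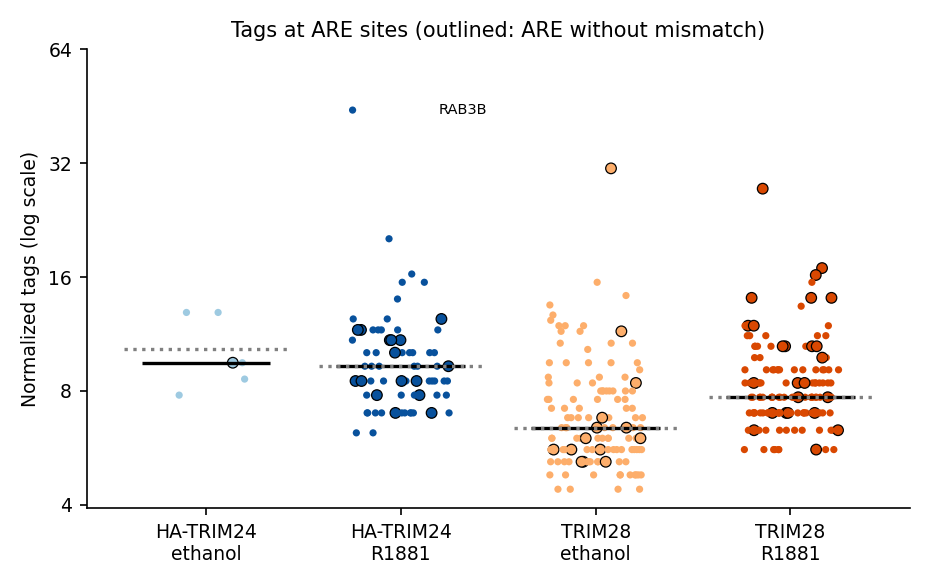
Normalized tags (log scale) at every ARE site of each list; each point is a site, outlined where the element has no mismatch. Black lines are medians over ARE sites and dotted grey lines medians over all sites of the list, which coincide at 9.3, 6.4 and 7.7 in the last 3 lists. The RAB3B site, at 44.2, stands apart from the other TRIM24 ARE sites.

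The ARE site with the most TRIM24 tags was in an intron of RAB3B, a small GTPase of vesicle secretion, at chr1:52414442-52414613. It had 44.2 normalized tags of TRIM24 with R1881 (57 tags, Poisson 95% interval 33.5 to 57.3) and 7.7 of TRIM28 with R1881 (3.86 to 13.8), and neither factor was called there with ethanol. The 200 bp around its centre, chr1:52414428-52414627 on the plus strand, are given with the 16 bases of the element in capitals, here in the opposite orientation to the line above.
RAB3B window: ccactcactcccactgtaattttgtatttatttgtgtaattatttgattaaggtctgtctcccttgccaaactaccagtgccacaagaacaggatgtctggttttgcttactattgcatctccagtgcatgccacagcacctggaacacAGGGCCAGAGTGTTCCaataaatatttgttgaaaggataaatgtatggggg
The next ARE sites for TRIM24 with R1881 had less than 50% of its tags. An intergenic site on chromosome 12 at chr12:52520280-52520495, nearest to SMIM41 at 46.9 kb, had 20.2 for TRIM24 and 6.3 for TRIM28 and was called for neither with ethanol. An intronic site of CPNE4, a calcium-dependent membrane-binding copine, had 16.3 for TRIM24 with R1881 and 6.8 and 7.7 for TRIM28 with ethanol and R1881. A site nearest to NAAA, a lysosomal amidase, lay in an intron of the neighbouring SDAD1 and had 15.5 for TRIM24 and 10.5 for TRIM28, both with R1881 only. A site 11.5 kb from TRIM35 also had 15.5 for TRIM24 with R1881, with 5.6 and 8.4 for TRIM28. Of these 5, TRIM24 with ethanol was called at none.

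The other ARE sites called for both factors with R1881 only and with the most summed tags were at CYB5A, the electron carrier cytochrome b5, with 11.6 for TRIM24 and 11.2 for TRIM28, and at GAS7, a growth arrest-specific gene, with 10.9 and 10.5. The site nearest to TUT1, a terminal uridylyltransferase, had the same values as GAS7.

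The 13 co-occupied sites whose element had no mismatch were nearest to KIF26B, STK39, KLF3, GPRIN3, TNFAIP8, CLVS1, SYK, LDLRAD3, TUT1, HMOX2, GAS7, MPRIP and DOK5. Their TRIM24 level with R1881 ran from 7.8 to 12.4 normalized tags and their TRIM28 level with R1881 from 6.3 to 16.9. TRIM24 with ethanol was called at none of them, and TRIM28 with ethanol at 7, at 5.2 to 6.8. Of these sites, 1 lay within 2 kb of a TSS, that nearest to SYK, which is itself 93.8 kb away, so that the start site belongs to another transcript.

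At the 72 ARE sites called for TRIM28 with both treatments, the log2 ratio of normalized tags (R1881 over ethanol) had a median of 0.26 with quartiles of -0.03 and 0.47, and 51 of 72 were higher with R1881. Over all 21502 such sites the median was 0.08 and 56.7% were higher. At least 2-fold higher with R1881 were 5 ARE sites (6.94%), where 2.54% of all such sites were, and at least 2-fold lower were 0, where 0.832% of all were. The 11 sites without mismatch had a median of 0.81, and 4 of them were at least 2-fold higher. All 5 sites past 2-fold were also TRIM24 sites with R1881, which were 26 of the 72. Over all 21502 such sites, 4.43% of those also called for TRIM24 with R1881 were at least 2-fold higher, against 2.17% of the others. Where both values had to reach 8 normalized tags, 19 ARE sites remained with a median of 0.04, beside 0.00 for all such sites, and the 5 sites past 2-fold were not among them because their ethanol values were lower than that.

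The 5 sites were as follows. They were picked by their ratio, so whether their counting intervals overlap is no test of a change. The site in an intron of STK39, a kinase that regulates chloride cotransporters, at chr2:168943399-168943675, had 5.6 TRIM28 tags with ethanol (3.04 to 9.34) and 16.9 with R1881 (10.8 to 25.1). The intergenic site 35.7 kb from LDLRAD3, a member of the LDL receptor family, at chr11:35929711-35929930, had 5.2 (2.75 to 8.84) and 16.2 (10.2 to 24.3). The site nearest to AFF3, a nuclear protein of the AF4 family, had 4.4 (2.18 to 7.83) and 13.4 (8.04 to 20.8). In these 3 the counting intervals did not overlap. The site in the 3′UTR of GPRIN3 had 5.2 (2.75 to 8.84) and 14.1 (8.58 to 21.7), and the site nearest to CLVS1 had 5.6 (3.04 to 9.34) and 11.9 (6.96 to 19.1), and here they did. TRIM24 with R1881 had 9.3, 11.6, 7.0, 12.4 and 11.6 normalized tags at the 5 sites, in that order.

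**Figure D4:**
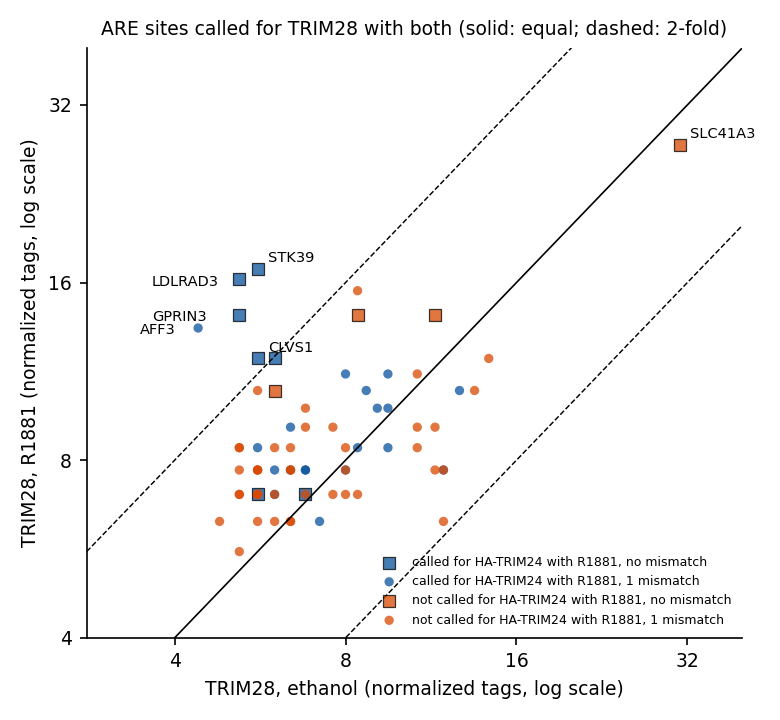
TRIM28 normalized tags with ethanol (x axis) and R1881 (y axis), both on log scales, at the 72 ARE sites called with both; points that share values overlap. Squares have no mismatch, blue marks sites also called for TRIM24 with R1881, the solid line is equality and dashed lines are 2-fold. The 5 points above the upper dashed line are blue, DOK5 lies just under it, and SLC41A3 lies near equality with the highest tags.

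The ARE site with the most TRIM28 tags, in an intron of SLC41A3, a gene of the magnesium transporter family, differed from these. At chr3:125747044-125747216 it had 31.0 normalized tags with ethanol (24.5 to 38.7) and 27.4 with R1881 (19.5 to 37.5), its element had no mismatch, and TRIM24 was not called there. Its element lay in bases that resemble those at other ARE sites, with 26 of 36 equal to the ANKRD50 site, and copies elsewhere in the genome were not checked. The next strongest with ethanol were at ATXN7L1 (15.5, ethanol only), CLEC4M (14.3, and 11.9 with R1881), RBM15B (13.5 and 10.5) and DNAAF2 (12.7 and 10.5). With R1881 they were STK39, LDLRAD3, MCRIP1 (15.5, and 8.4 with ethanol) and the promoter of DAPK2, a death-associated kinase (14.1, and 11.5 with ethanol). The GPRIN3 site and a site nearest to AKAP13, a kinase anchoring protein, also had 14.1.

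The TRIM24 ARE sites with R1881 lay away from promoters. Within 2 kb of a TSS were 17 of 71 (23.9%, 15.5 to 35.0), against 46.9% of all TRIM24 sites with R1881, and in introns were 36 (50.7%, 39.3 to 62.0), against 28.2%. Their median distance to the nearest TSS of a protein-coding gene was 26.2 kb, against 13.6 kb. An ARE was present at 1.13% (0.866 to 1.47) of the TRIM24 sites outside promoters with R1881 and at 0.403% (0.252 to 0.644) of those at promoters, and 15 of the 16 elements without mismatch were outside. All 6 TRIM24 ARE sites with ethanol were at promoters, where 2356 of the 4953 TRIM24 sites with ethanol lay. For TRIM28 with R1881, promoters held 38 of 147 ARE sites (25.9%, 19.5 to 33.5), against 31.6% of all. Over the whole set of 234, 68 were at promoters (29.1%, against 33.3% of all merged sites), 97 in introns (41.5%, against 37.8%), 59 intergenic (25.2%, against 26.1%) and 10 in exons. The G and C content of the 200 bp had a median of 47.0% at the TRIM24 ARE sites with R1881, against 51.0% over all sites of the list, and of 53.5% at the TRIM28 ARE sites of ethanol only, against 48.5%; its part in the shares was not tested.

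The promoter ARE sites with the most TRIM24 tags with R1881 were nearest to PPFIBP2, a liprin scaffold protein (12.4 normalized tags), HAPLN2, a hyaluronan link protein (11.6), TNS3, a tensin of focal adhesions (11.6), MTCL1, a microtubule crosslinking factor (11.6), and CLPSL1, a colipase-like gene (10.9), though at TNS3 and HAPLN2 the TSS within 2 kb belongs to another transcript. All 5 were also called for TRIM28 with ethanol, at 6.0 to 9.5, and 4 of them with R1881, at 7.7 to 11.2. Of the TRIM24 sites with ethanol, those with the most tags were at ATP13A1, a P-type ATPase (12.9, in no other list), PHAX (12.9, and 9.3 with R1881), ZSCAN18, a SCAN zinc finger gene (9.5, in no other list), DAPK2 (9.5) and a promoter nearest to FRMD8 (8.6, in no other list).

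In the lists with R1881, the element was nearer to the middle of TRIM24 sites than of TRIM28 sites by its median, and the intervals of the shares within 50 bp just overlapped. The lists share sites, and the difference was not tested. Measured from the centre of the list's own site, it was within 50 bp at 49 of 71 TRIM24 sites with R1881 (69.0%, 57.5 to 78.6), with a median distance of 34.0 bp, and at 73 of 147 TRIM28 sites with R1881 (49.7%, 41.7 to 57.6), with a median of 51.0 bp. TRIM28 with ethanol, from its own centre, gave 54.9% (46.4 to 63.1). In the windows beside the sites the element was within 50 bp of the middle in 50.9% (44.3 to 57.5). An element there cannot lie more than 100 bp from the middle, so this value compares only with distances from the merged centre. Measured that way, the element was within 50 bp at 136 of the 234 sites (58.1%, 51.7 to 64.3).

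**Figure D5:**
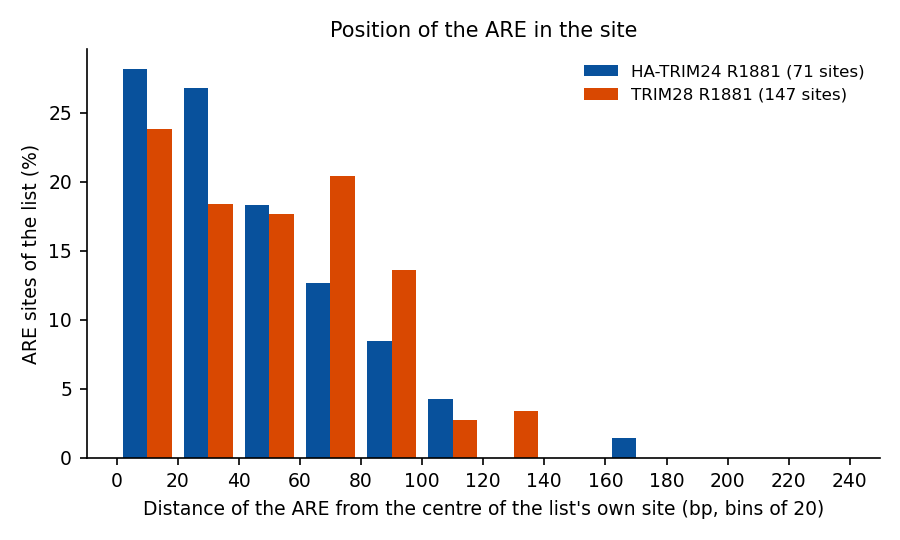
Percent of the ARE sites of a list by distance of the element from the centre of the list's own site, in bins of 20 bp, for TRIM24 with R1881 (71 sites) and TRIM28 with R1881 (147 sites). The TRIM24 bars decline from 28.2% in the first bin to 8.45% at 80 to 100 bp, and the TRIM28 bars stay between 13.6% and 23.8% over the same range; distances over 100 bp occur because the motif was sought around the merged centre.

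The forkhead motif of FOXA1, a pioneer factor that opens chromatin in prostate cells, was present without mismatch at 2 of 234 ARE sites (0.855%, 0.235 to 3.06), against 0.957% of all merged sites. These were the sites nearest to CLVS1 and SMIM36, both called for TRIM24 with R1881 and for TRIM28 with both treatments. With up to 1 mismatch it was present at 20 ARE sites (8.55%, 5.60 to 12.8), against 9.94% of all, and at 9 of the 46 co-occupied with R1881 (19.6%, 10.7 to 33.2), against 12.2% of all co-occupied sites. The motif of the insulator protein CTCF, sought with up to 3 mismatches, was found at 1 ARE site (0.427%, 0.0755 to 2.38), against 0.729% of all merged sites. Both motifs were sought on both strands.

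Among the androgen-regulated genes that were listed for this purpose, FKBP5, STEAP4 and ANKH each had an ARE site within 50 kb of the gene. Of 8 genes shared with the glucocorticoid receptor FKBP5 alone had one, and of 10 prostate transcription factor genes none had. By comparison, 421 of 20090 protein-coding genes (2.10%) had one, and gene length was not matched.

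FKBP5 encodes a co-chaperone of steroid receptors. Its site, in an intron at chr6:35569730-35569894, had an element without mismatch and was called for TRIM28 with ethanol only, at 6.4 normalized tags (16 tags, 3.64 to 10.3). STEAP4 encodes a metalloreductase, and its intronic site at chr7:87932886-87933042, 3.23 kb from the TSS, was called for TRIM24 with R1881 only, at 11.6 (6.52 to 19.2). The intronic site of ANKH, a pyrophosphate transporter, was called for TRIM28 only, at 6.8 with ethanol (3.94 to 10.8) and 9.1 with R1881 (4.86 to 15.6). At these sites of FKBP5, STEAP4 and ANKH, TRIM24 and TRIM28 were not called together. SGK1, a kinase induced by steroid hormones, and MAF, a bZIP transcription factor, were the nearest genes of a site more than 50 kb away and were singled out after their values were seen. The SGK1 site, 83.0 kb upstream, had 7.0 normalized tags of TRIM24 with R1881, and TRIM28 had 8.0 there with ethanol and 11.2 with R1881. The MAF site, 63.9 kb upstream, had 7.6 for TRIM28 with ethanol and 7.0 with R1881.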

How the data were processed

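ChIP-seq was performed for HA-TRIM24 and TRIM28 in LNCaP cells, with 1 sample per condition. Per the labels and the study's methods, the authors aligned reads to hg19 with BWA 0.6.1 and called sites per sample with HOMER 4.1 in its transcription factor mode; no input library appears in the file headers. The deposited signal is the normalized tag count, scaled to 10000000 tags, and the deposited ratio is the fold of tag density over the local region. Replicates were not pooled.

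Sites were merged at 1 bp of overlap. The ARE, forkhead (FOXA1) and CTCF consensuses were read from the supplementary motif table of the study. In the ARE search, ambiguity letters had to fit. Sites were assigned in the order promoter (within 2 kb of any TSS), 5′UTR, 3′UTR, coding exon, other exon, intron and intergenic with GENCODE release 44 mapped to GRCh37, the same build, and the nearest gene is that of the closest protein-coding TSS. Shares carry Wilson 95% intervals. Normalized tags were multiplied back to tags, which came out whole at all ARE sites (within the rounding of 0.1 normalized tags), for Poisson 95% intervals. The tags carry no molecular identifiers, so these intervals cover counting error only. The merging, search and intervals were tested on simulated data (Python 3.11.15, pandas 2.3.3).

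Named sites are the 5 strongest ARE sites of each list, those without mismatch called for both factors with R1881, the 5 strongest called for both with R1881 only, the 5 strongest at promoters for TRIM24 with R1881, and those within 50 kb of a listed gene; AFF3, AKAP13 and SMIM36 were named after their values were seen. The members and gene lists were chosen with earlier results of these data known. The sequence of sites on chromosome 8, 1 further motif and part of the listed genes are not reported here.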

Additional observations from a re-analysis of the deposited data

How the results depend on the processing

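No paired analysis was possible because each condition had 1 sample and the labels give no replicate numbers. Among the alternative values, 59 stayed within the interval of the reported value, or within 1.5 times for counts, 42 moved and 0 reversed; the cause was not tested beyond the narrower or wider search itself.

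Without mismatches there were 31 sites, and 0.0202%, 0.178%, 0.0243% and 0.0732% of the lists (TRIM24 with ethanol and R1881, TRIM28 with ethanol and R1881) held one. Of these sites, 51.6% were in the TRIM24 list with R1881, 45.2% in TRIM28 with ethanol and 80.6% in TRIM28 with R1881. TRIM24 was called with R1881 only at 16 (51.6%) and with ethanol only at 1 (3.23%), where 8.97% and 3.50% of all merged sites were. TRIM28 was called with R1881 only at 14 (45.2%) and with ethanol only at 3 (9.68%), where 17.1% and 48.8% of all merged sites were. The TRIM28 log2 ratio was 0.81, 12.9% were at promoters and 3.23% had a forkhead motif. With 1 mismatch at any position, 1.21%, 0.319% and 0.647% of the TRIM24 R1881, TRIM28 ethanol and TRIM28 R1881 lists held an ARE. Of the 342 sites of that search, 107 were called for TRIM24 with R1881 only and 118 for TRIM28 with R1881 only. The shares of all merged sites called that way were 8.97% and 17.1%.

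In 100 bp windows there were 115 sites, at 0.0404%, 0.478%, 0.101% and 0.223% of the lists, with 37.4% in TRIM24 with R1881. Of these, 0% had a forkhead motif and, by construction, 100% lay within 50 bp. TRIM24 was called at 42 of the 115 with R1881 only (8.97% of all merged sites) and at 1 with ethanol only (3.50% of all). TRIM28 was called at 40 with R1881 only (17.1% of all) and at 22 with ethanol only (48.8% of all). At 8 or more normalized tags there were also 115 sites, 42.6% in TRIM24 with R1881 and 32.2% in TRIM28 with ethanol, with a TRIM28 log2 ratio of 0.04 and 22.6% at promoters. TRIM28 reached 8 tags with R1881 only at 47 ARE sites, of 7195 merged sites that did so. It reached them with ethanol only at 18, of 8761. Promoters held 21.8% within 1 kb and 20.1% by protein-coding TSSs only. A forkhead motif with up to 1 mismatch, tried after seeing the data, gave 8.55%. In all 6 searches that recomputed it the share of sites with an ARE was higher with R1881 than with ethanol for both factors. With at most 57 tags behind a TRIM24 ARE site and 78 behind a TRIM28 ARE site, the depth limits differences at single sites.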

Other observations

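The share of merged sites with an element was highest on chromosome 16 and lowest on chromosomes 14 and X, and the differences between chromosomes were not tested. On chromosome 16, 15 of 2503 merged sites had an element (0.599%), on chromosome 14 it was 2 of 2650 (0.0755%), and on chromosome X 0 of 805, which allows a share of up to 0.373% by the count of 3 that 0 permits. Genes that were nearest to 2 ARE sites were BASP1, CITED2, LRRC4C, NDUFA12, PACSIN2 and WWOX. Both sites of PACSIN2, a membrane-bending adaptor, were called for TRIM24 with R1881 only, at 10.1 and 8.5 normalized tags, and both of BASP1, a membrane-bound signalling protein, for TRIM28 with both treatments, at 6.0 and 7.6 with ethanol and 6.3 and 9.1 with R1881.

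Of the 234 sites, 2 held more than 1 element that did not overlap, with up to 4 in a site. They were in an intron of COL4A2, a collagen of basement membranes (10.1 normalized tags), and at chr4:187468412-187468568 (10.9), and both were called for TRIM24 with R1881 only. Among the elements, 4 sites shared their 16 bases with another site, as the pairs CTBP1 with KCTD5 and SHROOM3 with ANKH. Over the 36 bases that hold the element and its flanks, CTBP1 and KCTD5 matched at 35, so the tags of these 2 sites are uncertain. Read in either orientation with a shift of at most 1 base, 18 of the 27261 pairs of ARE sites, from 17 sites, matched at 26 or more of the 36, where the median pair matched at 16. The sites nearest to PRR23D1 and DEFB107A also matched at 35, those of ATXN7L1 and LRIG3 at 31, and those of ANKRD50 at 30 with both IGSF11 and RPAP3. CDH9 matched ATXN7L1 at 29. This comparison was chosen after seeing the data. No repeat annotation was used and copies elsewhere in the genome were not checked, so the tags of these sites carry the same uncertainty.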
